A study of Mus musculus with 20 samples.

Results

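Endothelial cells that had grown into the bridge of the injured mouse sciatic nerve were compared between 14 and 7 days post-injury (dpi). The question was which expression programs the new vessels switch off and which they gain as they mature. The bridge is the tissue that forms at the lesion and that regrowing axons and Schwann cells later cross. The comparison holds 4 libraries at 14 dpi and 5 at 7 dpi, 9 of the 20 libraries of the series, chosen by their time label and sort reporter. A further 5 libraries from intact nerve entered the same fit and are given beside them. All 3 groups came from adult mice that were wild type for Plxnd1 and carried the reporter written Chd5CreER/R26-TdTomato in the labels. In these mice Cdh5(PAC)-CreERT2, an inducible recombinase under an endothelial cadherin promoter, removes a stop cassette from a red reporter at the Rosa26 locus. The reporter marks every descendant of a recombined cell, so it records a cell's origin and not its present state. Nerves were pooled and digested with enzymes, and Tomato-positive cells negative for CD45, a leukocyte surface protein, were sorted for bulk sequencing of polyA RNA. The series' design text speaks of a bridge region, while the condition labels call the injury a crush. No label names the animals behind a library, and the p-values rest on the spread among libraries alone, which may be partly technical.

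A growing vessel begins as a sprout. Tip cells at the front read VEGF and guidance cues, secrete proteases and lay down new basement membrane, while stalk cells behind them divide. As blood starts to flow, division stops, pericytes are recruited, and endothelial cells take up arterial, capillary or venous properties. In peripheral nerve the vessels of the endoneurium also form a blood-nerve barrier, with tight junctions, few caveolae and dedicated transporters, a state known from brain vessels to depend on Wnt and beta-catenin signalling.

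Total counts ran from 19.06 to 34.18 M in the 14 dpi libraries, 20.46 to 32.97 M at 7 dpi and 20.03 to 31.43 M in intact nerve. Mitochondrial transcripts made up 1.83 to 4.16% of counts at 14 dpi and 1.90 to 3.42% at 7 dpi. Both sequencing batches in the labels, 1133 and 1292, held every group (2 and 2 libraries at 14 dpi, 2 and 3 at 7 dpi). The sorted population expressed its defining genes. Pecam1, an endothelial adhesion protein, ranged from 1569 to 2073 CPM (counts scaled to a common library total) at 14 dpi and from 1870 to 2937 CPM at 7 dpi. Cdh5, endothelial cadherin, ranged from 295 to 424.5 CPM and from 388.6 to 723.5 CPM. Neither passed the test (edgeR adjusted p = 0.605 and 0.0967). Of 21 pan-endothelial genes 1, the junction gene Cldn5, was called higher and none was called lower. Their median log2 fold change was nevertheless -0.30, and 17 of the 21 had a negative value. In 6 of the 21 every 14 dpi library was below every 7 dpi library, as in 1181 of all 20409 tested genes. Falls of endothelial genes described below stand beside this median.

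Transcripts of other nerve cells were present in every library and differed between the times. The fibroblast list (19 genes) summed to 5572 to 23730 CPM at 7 dpi and 20220 to 45330 CPM at 14 dpi. The perineurial list (10 genes of the cells that sheathe nerve fascicles) summed to 715.3 to 1841 CPM and 1998 to 4546 CPM, and the Schwann cell list (14 genes tested) to 258.8 to 319.8 CPM and 797.2 to 2667 CPM. The mural list (14 genes) overlapped between the times, at 1079 to 2500 CPM and 1755 to 4150 CPM. Of the defining markers none was at 0 in all 9 libraries, although the leukocyte gene Ptprc, which encodes CD45, stayed between 0.0492 and 1.54 CPM at 7 dpi and between 0.215 and 8.40 CPM at 14 dpi, and the lymphatic gene Prox1 between 6.66 and 25.7 CPM and between 4.27 and 13.1 CPM. Some libraries stood apart. The 7 dpi library 3 had the least stromal RNA (703 CPM of the fibroblast gene Dcn and 69.1 CPM of the perineurial gene Cldn1, against at least 3544 and 315 CPM in the other 7 dpi libraries). Macrophage transcripts were high in the 14 dpi library 3 and the 7 dpi library 4, where the lysozyme gene Lyz2 reached 778 and 245 CPM against at most 23.8 CPM in the others. Y chromosome genes summed to 0 to 215.7 CPM at 7 dpi and 0 to 267.9 CPM at 14 dpi. The Y gene Ddx3y was at 117 CPM in 7 dpi library 1 and at 147 and 97.85 CPM in 14 dpi libraries 1 and 2. It was at 0 in the other bridge libraries and at 17.7 to 137 CPM in intact nerve. The sex makeup of the pools thus differed between libraries and between the 3 groups.

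**Figure D1:**
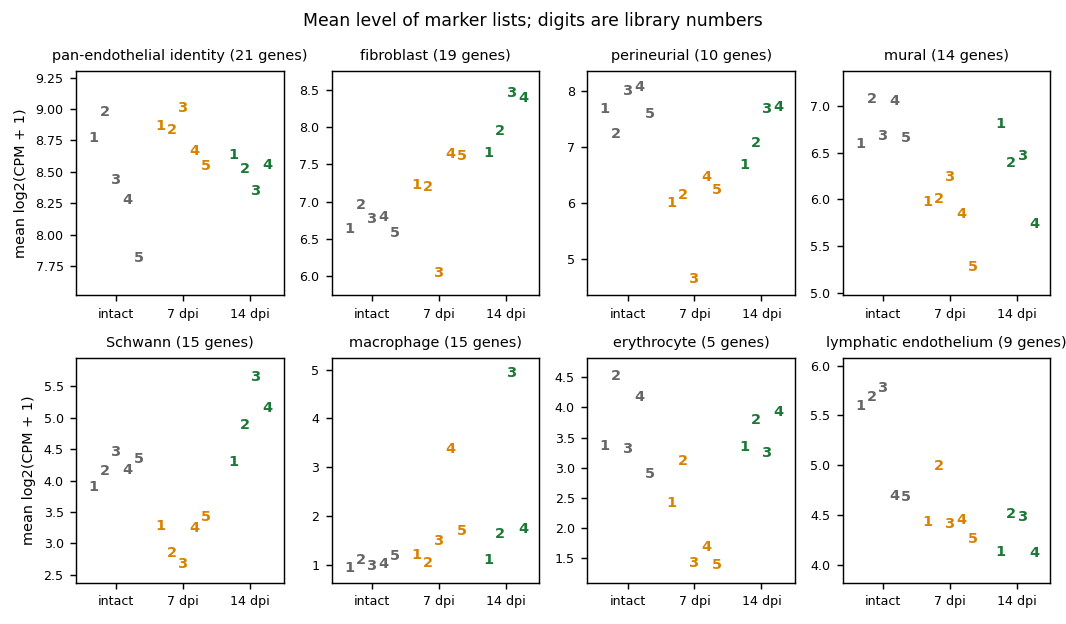
Mean level of marker lists, as mean log2(CPM + 1) over the genes in brackets, in each intact, 7 dpi and 14 dpi library (digits are library numbers). Fibroblast, perineurial and Schwann lists were higher in all 4 libraries at 14 dpi than in all 5 at 7 dpi, while the pan-endothelial and mural lists overlapped.

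Of the 55376 genes counted, a low-count filter kept 20409, of which 1170 (5.73%) were higher and 857 (4.20%) lower at 14 dpi at an adjusted p under 0.05 (edgeR quasi-likelihood test with batch in the model). A change of at least 2-fold was seen in 628 and 366 of them. Every 14 dpi library was above every 7 dpi library in 1028 of the 20409 genes, and below in 1181. The shares of 5.73% and 4.20% are the background for the gene lists below. The median log2 fold change over all tested genes was 0.06, and every called gene had 1 sign in both batches. The genes were called on these same libraries, so that agreement is not independent of the call. Batch 1133 alone called 351 of the 2027 genes again and batch 1292 alone 652. In these bulk samples a lower share of cells with a transcript and less of it per cell cannot be told apart. The counts depended on the libraries. Without 14 dpi library 3 there were 762 higher genes, without 14 dpi library 2 there were 518 lower ones, and without both 7 dpi library 3 and 14 dpi library 3 there were 557 and 429. Since stromal RNA moved with time, a fit with the mean log2 level of Dcn and Cldn1 as a further covariate was added after the data were seen. It called 37 genes higher and 73 lower, with a median standard error of 0.414 against 0.272 without the covariate. Of the 2027 genes called without it, 90 were called again and 83 had the opposite sign. Dcn ran from 703 to 5269 CPM at 7 dpi and from 7525 to 14090 CPM at 14 dpi. Cldn1 ran from 69.1 to 475 CPM and from 688 to 1549 CPM. The bridge libraries of the 2 times thus shared no stromal level. A gene that misses the threshold in this fit may therefore still differ between them.

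**Figure D2:**
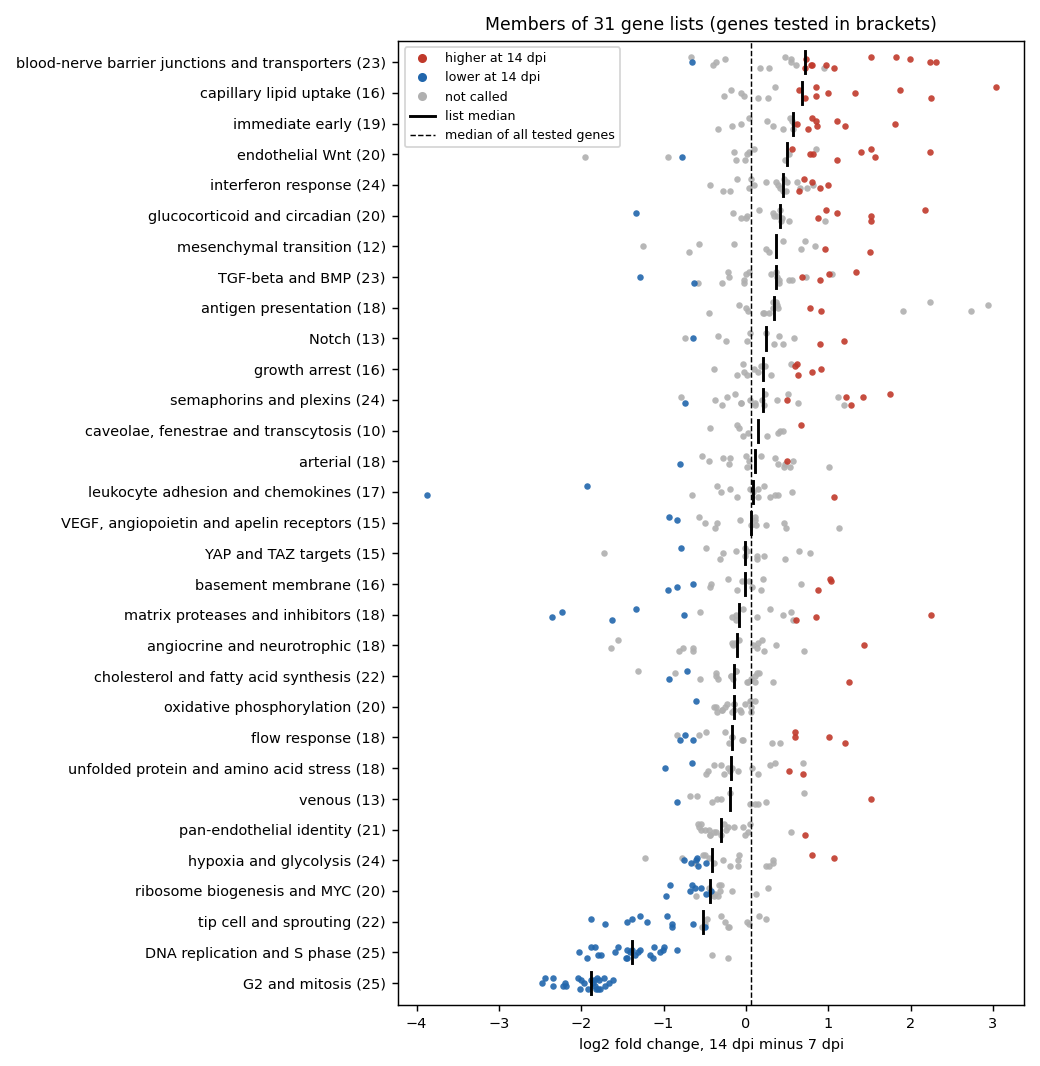
Log2 fold change between 14 and 7 dpi of each tested member of 31 gene lists, sorted by list median. Mitosis, replication and sprouting lists lie to the left (medians -1.89, -1.38 and -0.52), and barrier, capillary lipid uptake and immediate early lists to the right (0.71, 0.68 and 0.57), against 0.06 over all tested genes.

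The most uniform change was the decline of the cell division program. All 25 genes of the G2 and mitosis list fell (background 4.20% lower), with a median log2 fold change of -1.89. For each of them every 14 dpi library was below every 7 dpi library, as for 1181 of all 20409 tested genes. Mki67, the nuclear antigen of cycling cells (chr7:135689784-135716361, GRCm38), stood at 58.7, 70.8, 75.0, 52.3 and 51.1 CPM in the 7 dpi libraries 1 to 5. It was at 13.6, 25.5, 15.1 and 12.8 CPM in the 14 dpi libraries 1 to 4. The highest 14 dpi value, in library 2, was still under the lowest at 7 dpi (log2 fold change -1.86 ± 0.24, SE; edgeR adjusted p = 1.7e-04). Birc5, survivin of the chromosomal passenger complex, fell from 111, 107, 112, 128 and 106 CPM to 15.8, 23.4, 18.99 and 24.6 CPM (-2.48 ± 0.23, edgeR adjusted p = 1.5e-05). The kinase Plk1 (-2.44 ± 0.26), the anaphase-promoting ubiquitin carrier Ube2c (-2.34 ± 0.22) and the mitotic cyclins Ccnb1 (-2.22 ± 0.23) and Ccnb2 (-2.20 ± 0.28) fell by similar amounts. The smallest fall of the list was that of the checkpoint kinase Ttk (-1.62 ± 0.32).

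Division genes had not returned to the level of intact nerve. The mitosis list summed to 1541 to 1901 CPM at 7 dpi, 341.9 to 494.8 CPM at 14 dpi and 56.36 to 119.2 CPM in intact nerve. All 25 members remained higher at 14 dpi than in intact nerve (background 6.86% higher and 5.09% lower in that comparison), with a median log2 fold change of 2.48. That comparison shares its 14 dpi libraries with the one described here. With the stromal covariate the list median was -1.70, and 12 members passed. Of the members named above, Birc5, Plk1, Ube2c and Ccnb1 passed. Mki67 (-1.50 ± 0.37, edgeR adjusted p = 0.0852), Ccnb2 (-1.935 ± 0.43, adjusted p = 0.0572) and Ttk (-1.38 ± 0.50, adjusted p = 0.336) missed the threshold.

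DNA replication genes fell less. Of 25, 23 fell and none rose, with a median of -1.38. Tk1, thymidine kinase, stood at 68.4, 73.9, 84.6, 111 and 90.05 CPM at 7 dpi and 16.98, 21.8, 18.4 and 28.2 CPM at 14 dpi (-2.03 ± 0.19, edgeR adjusted p = 1.5e-05). The helicase subunits Mcm5 (-1.93 ± 0.19), Mcm2 (-1.40 ± 0.19) and Mcm6 (-1.16 ± 0.19) and the polymerase subunit Pola1 (-0.84 ± 0.18) followed. The members that did not pass were Pcna, the sliding clamp (-0.41 ± 0.15, edgeR adjusted p = 0.109), and the transcription factor E2f1 (-0.22 ± 0.28, adjusted p = 0.752). At 14 dpi, 18 of the 25 were above intact nerve. With the stromal covariate the median was -1.07, and 3 members passed.

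Since the mitosis genes moved together, their promoters were read for motifs. RefSeq promoter windows (GRCm38.p6, 250 bases before to 50 after the start) were found for 21 of the 25 mitosis genes, in 22 windows. The CCAAT box, bound by NF-Y, was present on either strand in 20 of the 22 (90.9%), against 37.4% of all 32851 windows. The TTTGAA form of the cell cycle genes homology region, the element through which the DREAM repressor complex is known to act on mitotic genes, was in 17 (77.3%), against 17.9% of all. For the replication genes, matched in 21 of 25 cases and 26 windows, the shares were 57.7% and 15.4%. The E2F form TTTGGCGC was in 5 of these (19.2%, against 0.514% of all) and TTTCCCGC in 3 (11.5%, against 1.07%), while neither was in a mitosis window. None of these motifs contains another, and each was counted apart. The last 120 bases before the start are shown for 3 mitosis genes, to let the spacing of the boxes be seen, and for 1 replication gene with a repeated E2F form. All 4 lie on the minus strand: Ccnb2 at chr9:70421555-70421674, the mitotic exit activator Cdc20 at chr4:118437344-118437463, the kinase Cdk1 at chr10:69352913-69353032 and Mcm6 at chr1:128359706-128359825. Capitals mark CCAAT on either strand (ATTGG when reversed) and any TTTGAA in the first 3, and TTTGGCGC in Mcm6. The TTTGAA copies of Ccnb2 begin at -167 and 4, outside the stretch shown.
Ccnb2: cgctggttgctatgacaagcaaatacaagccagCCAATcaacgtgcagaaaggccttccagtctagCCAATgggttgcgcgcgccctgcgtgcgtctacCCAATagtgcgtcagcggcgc
Cdc20: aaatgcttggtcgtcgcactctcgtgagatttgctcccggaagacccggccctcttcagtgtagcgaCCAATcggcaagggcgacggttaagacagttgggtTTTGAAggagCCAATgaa
Cdk1: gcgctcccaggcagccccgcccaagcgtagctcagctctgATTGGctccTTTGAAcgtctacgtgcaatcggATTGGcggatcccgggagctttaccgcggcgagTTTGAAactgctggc
Mcm6: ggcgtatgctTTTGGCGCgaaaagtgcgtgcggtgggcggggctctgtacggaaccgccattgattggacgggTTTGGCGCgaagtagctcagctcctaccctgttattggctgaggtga
Ccnb2 carried 3 CCAAT boxes in this stretch, Cdc20 and Cdk1 carried 2 each, and Mcm6 carried 2 copies of the E2F form. These genes stood at 114 ± 8.23, 119.7 ± 17.4, 149 ± 20.6 and 201 ± 37.5 CPM at 7 dpi (SD, n = 5) and 25.8 ± 6.98, 36.7 ± 17.6, 43.9 ± 9.73 and 88.5 ± 8.88 CPM at 14 dpi (n = 4). A match is a description of the letters and not evidence of binding.

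**Figure D3:**
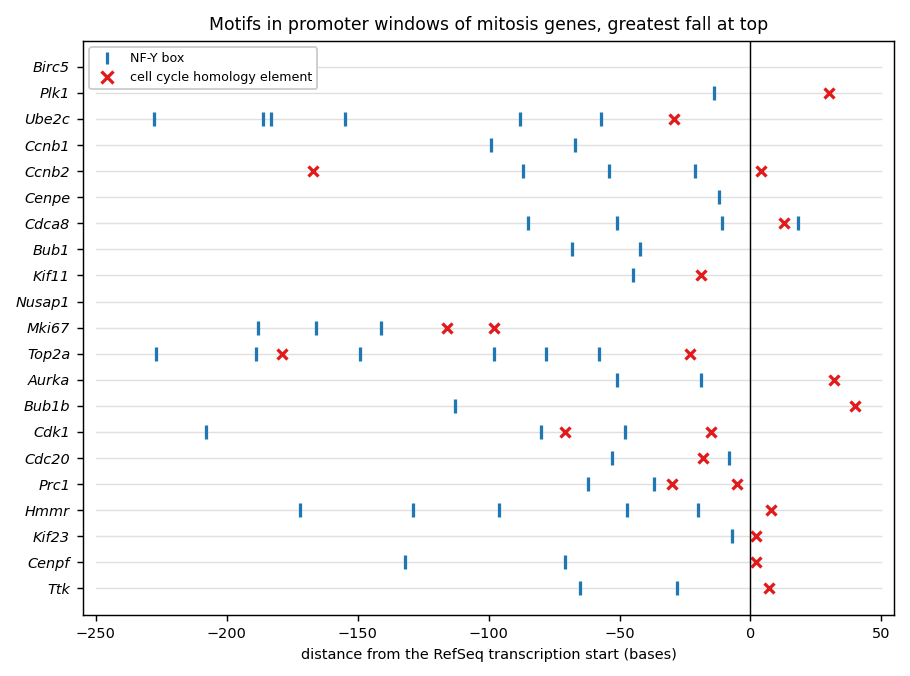
Positions of 2 promoter motifs in windows of 21 mitosis genes, as distance in bases from the RefSeq start (0), with the gene of the greatest fall at the top. Birc5 and Nusap1 hold neither motif, the other genes hold the NF-Y box, and both windows of Prc1 are drawn on 1 line.

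Genes of growth arrest changed less than those of division. Of 16 tested, 5 rose (background 5.73%) and none fell, with a median of 0.21. Btg2, an antiproliferative gene, stood at 554, 619.5, 385, 452 and 461 CPM at 7 dpi and 929, 705, 809 and 890.3 CPM at 14 dpi (0.80 ± 0.21, edgeR adjusted p = 0.0225). All 14 dpi libraries lay above all 7 dpi libraries. Cdkn1c (p57, 0.91 ± 0.23), Tob1 (0.63 ± 0.15), the pocket protein gene Rbl2 (0.62 ± 0.19) and Klf4 (0.60 ± 0.17) also rose, with overlapping groups. The classical CDK inhibitors Cdkn1a (-0.39 ± 0.25) and Cdkn1b (0.23 ± 0.17) did not pass. The 5 calls were fragile. There were 3 without 7 dpi library 1, 3 or 4 or intact library 1, 2 without 7 dpi library 5 or 14 dpi library 4, and 1 without 14 dpi library 3. None passed with the stromal covariate, when Btg2 was at 0.41 ± 0.32 and Cdkn1c at 0.30 ± 0.33.

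The sprouting program was lowered as well. Of 22 tip cell and sprouting genes 11 fell, none rose, and the median was -0.52. In 11 of the 22 genes, called or not, every 14 dpi library was below every 7 dpi library (1181 of all 20409 tested genes). The called genes were all among them except Lxn. Esm1, the endocan of tip cells (chr13:113209659-113218098), stood at 44.9, 51.5, 87.0, 64.4 and 51.9 CPM at 7 dpi and 21.1, 17.1, 13.5 and 12.9 CPM at 14 dpi. The fold change was -1.88 ± 0.20 (edgeR adjusted p = 3.1e-05), and intact nerve stood at 21.8 ± 5.18 CPM (SD, n = 5). Apln, the apelin ligand of sprouting endothelium, fell from 269, 197, 481, 348 and 293 CPM to 94.4, 109.9, 81.9 and 101 CPM (-1.71 ± 0.20, edgeR adjusted p = 9.0e-05). The highest value at 7 dpi was that of library 3, the one with the least stromal RNA, and intact nerve was lower still (28.6 ± 2.13 CPM).

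Other members that fell were the chemokine receptor Cxcr4 (-1.45 ± 0.27), placental growth factor Pgf (-1.38 ± 0.25), the urokinase receptor Plaur (-1.29 ± 0.20) and the adhesion protein Mcam (-1.20 ± 0.16). Not every tip gene moved. Angpt2, the vessel-loosening angiopoietin, was at 198 ± 32.2 CPM at 7 dpi and 197 ± 38.7 CPM at 14 dpi (0.03 ± 0.21, edgeR adjusted p = 0.959), above the 83.7 ± 37.1 CPM of intact nerve. Dll4, the Notch ligand of tip cells, was at 149 ± 27.6 and 172 ± 33.4 CPM (0.25 ± 0.19, adjusted p = 0.538). The number of fallen members was 7 without 14 dpi library 1 and 6 without 14 dpi library 2. With the stromal covariate Esm1 alone of this list passed (-1.42 ± 0.29), Apln was at -1.09 ± 0.27 and Cxcr4 at -0.89 ± 0.40, and the median was -0.47.

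Among 15 receptors and ligands of VEGF, angiopoietin and apelin signalling 2 fell and none rose (median 0.06). Aplnr, the apelin receptor (chr2:85136225-85139923), stood at 2258, 1471, 2590, 2005 and 1756 CPM at 7 dpi and 922, 1224, 1006 and 1226 CPM at 14 dpi, without overlap (-0.84 ± 0.23, edgeR adjusted p = 0.0263). It remained above intact nerve (224 ± 79.5 CPM). Flt4, VEGF receptor 3, fell by 0.93 ± 0.22 on the log2 scale, also without overlap. The main VEGF receptors Kdr (485 ± 196 and 349.7 ± 101 CPM, -0.35 ± 0.20, adjusted p = 0.36) and Flt1 (391 ± 114 and 380.5 ± 68.3 CPM, 0.06 ± 0.14) did not pass in edgeR. The angiopoietin receptor Tek (-0.07 ± 0.15) and the semaphorin receptor Plxnd1 (-0.37 ± 0.17, adjusted p = 0.229) did not pass either. Aplnr missed the threshold without 14 dpi library 1, 2 or 3 or 7 dpi library 3 or 4 (-0.85 to -0.72), and Flt4 without 14 dpi library 2 (-0.85).

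**Figure D4:**
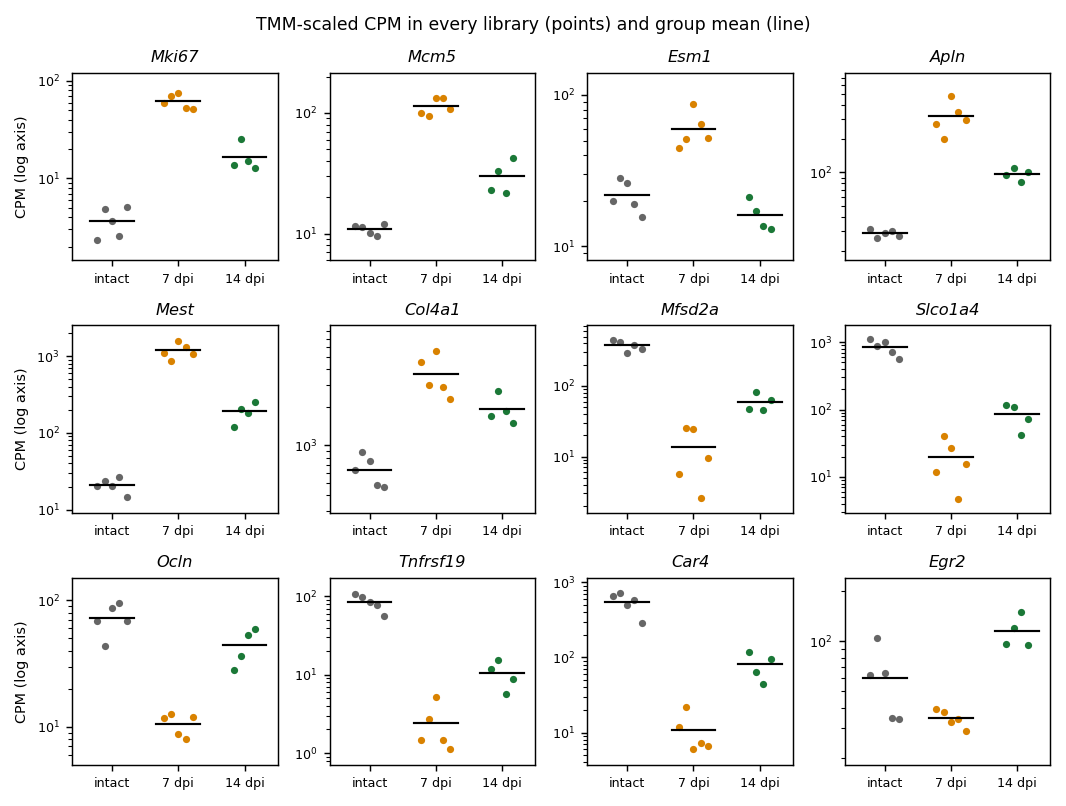
TMM-scaled CPM of 12 genes in every intact, 7 dpi and 14 dpi library (points, log axes) with the group mean (line). Mki67, Mcm5, Esm1, Apln and Mest were lower and Mfsd2a, Slco1a4, Ocln, Tnfrsf19, Car4 and Egr2 higher in all 4 libraries at 14 dpi than in all 5 at 7 dpi, and Col4a1 overlapped.

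The vascular matrix changed in composition. Of 16 basement membrane genes 3 fell and 3 rose (median -0.01). The type IV collagen Col4a1 stood at 4606, 3019, 5574, 2883 and 2348 CPM at 7 dpi and 1717, 2678, 1869 and 1491 CPM at 14 dpi. The groups overlapped in 14 dpi library 2 and 7 dpi library 5, and the fold change was -0.83 ± 0.20 (edgeR adjusted p = 0.0129). Col4a2 (-0.65 ± 0.18) and Col18a1, the source of endostatin (-0.94 ± 0.24), fell with it, and all 3 stayed above intact nerve (adjusted p = 2.5e-05, 2.9e-05 and 1.5e-05). Npnt, nephronectin, rose from 38.1 ± 11.7 to 66.0 ± 6.92 CPM (0.87 ± 0.19), as did the laminin chain Lamb2 (1.02 ± 0.23) and Egflam, pikachurin (1.03 ± 0.20). The perineurial list, at 715.3 to 1841 CPM at 7 dpi and 1998 to 4546 CPM at 14 dpi, moved with these rises. With the stromal covariate none of the 3 passed, and Lamb2 was at 0.53 ± 0.35, Npnt at 1.22 ± 0.30 and Egflam at 0.93 ± 0.32, while Col4a1 was at -0.42 ± 0.29. Col4a2 missed the threshold without 14 dpi library 1, 2 or 4 or 7 dpi library 1, 3 or 4 (-0.69 to -0.51), Col18a1 without 14 dpi library 1 or 2 or 7 dpi library 4 (-0.94 to -0.75), and Lamb2 without 14 dpi library 2 (0.96).

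Of 18 matrix proteases and inhibitors 5 fell and 3 rose (median -0.08). The metalloprotease Adam12 stood at 28.8, 24.8, 42.3, 28.8 and 21.2 CPM at 7 dpi and 9.35, 9.82, 9.15 and 8.33 CPM at 14 dpi, without overlap (-1.63 ± 0.29, edgeR adjusted p = 0.00192), and remained above intact nerve (1.89 ± 1.13 CPM). The gelatinase Mmp9 (-2.35 ± 0.60) and urokinase Plau (-0.75) also fell. The tissue inhibitors of metalloproteases split: Timp1 fell (130.7 ± 41.5 to 54.5 ± 21.7 CPM, -1.34 ± 0.21), while Timp3 rose (425 ± 69.6 to 738 ± 93.3 CPM, 0.85 ± 0.15), as did Timp2 (0.61 ± 0.16) and Timp4 (2.25 ± 0.49). Under the stromal covariate Timp2 was at 0.17 ± 0.23 and Timp4 at 1.16 ± 0.73, and 1 member of the list, Timp1, fell (-1.84 ± 0.30). The list had 3 fallen members without 14 dpi library 2. Mmp9 missed the threshold without 14 dpi library 1, 2 or 4 (-2.47 to -2.08), and Timp2 without 14 dpi library 2, 3 or 4 or 7 dpi library 3 or 5 (0.51 to 0.66).

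Part of the genes of metabolism and biosynthesis fell. Of 24 hypoxia and glycolysis genes 6 fell and 2 rose (median -0.42). Pkm, pyruvate kinase, stood at 829, 772, 829.6, 890.4 and 779.8 CPM at 7 dpi and 445, 468, 447 and 595 CPM at 14 dpi, with no overlap (-0.75 ± 0.15, edgeR adjusted p = 0.00422). Phosphoglycerate kinase Pgk1 (-0.67 ± 0.12), Gapdh (-0.60 ± 0.15) and the oxygen-regulated transcription factor Hif1a (-0.60 ± 0.12) also fell. The rises were those of the stress response gene Ndrg1 (0.80 ± 0.17) and the glucose transporter Slc2a1, a barrier gene described further on. Oxidative phosphorylation showed 1 fall in 20 genes (background 4.20% lower, median -0.14). Without 14 dpi library 2 the glycolysis list had 3 fallen members, and Gapdh missed the threshold (-0.53). With the stromal covariate 1 member of this list fell. It was not Hif1a, which missed the threshold (-0.37 ± 0.19, edgeR adjusted p = 0.564).

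Of 20 genes of ribosome biogenesis and MYC targets 8 fell and none rose (median -0.43). Nme1, a nucleoside diphosphate kinase, was at 92.2, 89.3, 86.6, 91.6 and 102 CPM at 7 dpi and 45.9, 42.5, 43.0 and 60.3 CPM at 14 dpi (-0.97 ± 0.14, edgeR adjusted p = 4.6e-04), and the spermidine synthase Srm fell by 0.92 ± 0.16. All 14 dpi values were under all 7 dpi values for both. Myc itself was at 146 ± 41.6 and 122 ± 19.4 CPM (-0.17 ± 0.24, adjusted p = 0.778). Without 14 dpi library 2, 5 members of the list fell, and with the stromal covariate none did (median -0.43). In sterol and fatty acid synthesis 2 of 22 genes fell (Fdft1, squalene synthase, -0.72 ± 0.14, and the epoxidase Sqle, -0.94 ± 0.24) and the desaturase Scd1 rose (1.25 ± 0.34). Scd1 was lowest in the stroma-poor 7 dpi library 3 (34.4 CPM against at least 147 CPM in the others), and its fold change was -0.35 with the stromal covariate. Of 18 genes of unfolded protein and amino acid stress 2 rose and 2 fell (median -0.18). The serine synthesis enzyme Psat1 fell by 0.99 ± 0.19, while Ddit3 rose by 0.69 ± 0.17 and missed the threshold without 14 dpi library 1 (0.56). Scd1 also missed the threshold without 14 dpi library 2, 3 or 4 or 7 dpi library 4 or 5 (1.10 to 1.34), and Sqle without 14 dpi library 1 or 2 (-0.96 to -0.76).

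Several of the greatest single falls lay outside these programs. Crmp1, a collapsin response mediator that relays semaphorin signals to the cytoskeleton in neurons (chr5:37242080-37292133), was at 21.1, 13.1, 28.1, 20.9 and 16.8 CPM at 7 dpi and 2.597, 1.70, 2.92 and 2.51 CPM at 14 dpi, beside 2.56 ± 0.88 CPM in intact nerve. Its fold change was -3.08 ± 0.32 (edgeR adjusted p = 2.8e-05). Mest, an imprinted gene of growing tissues (chr6:30733506-30748465), fell from 1114, 863, 1575, 1335 and 1081 CPM to 120.5, 208, 184 and 253 CPM (-2.66 ± 0.24, edgeR adjusted p = 1.5e-05). It was still above intact nerve (21.1 ± 4.43 CPM). Chga, chromogranin A of secretory granules, fell from 255 ± 81.8 to 55.5 ± 12.3 CPM (-2.19 ± 0.37) and stood at 1.49 ± 1.09 CPM in intact nerve. Neurotensin, Nts, fell by 2.82 ± 0.58. The imprinted RNA H19 fell by 2.26 ± 0.40 with overlapping groups, and its lowest 7 dpi value (51.0 CPM) was in library 3. Crmp1, Mest and H19 also passed with the stromal covariate (-2.39, -2.32 and -3.83).

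Barrier genes rose between the times. Of 24 listed blood-nerve barrier junction and transporter genes 23 were tested, 11 rose and 1 fell, with a median of 0.71. Mfsd2a, the lipid transporter that holds back transcytosis in brain endothelium (chr4:122946850-122961188), stood at 5.57, 25.5, 24.8, 2.57 and 9.57 CPM at 7 dpi. At 14 dpi it was at 46.4, 82.8, 46.3 and 62.2 CPM. All 4 were above all 7 dpi values (2.31 ± 0.44, edgeR adjusted p = 0.003) and below every intact library, with an intact mean of 377 ± 64.0 CPM. Slco1a4, an organic anion transporter (chr6:141805440-141856171), rose from 11.8, 40.4, 26.6, 4.75 and 15.5 CPM to 117, 108, 42.4 and 71.5 CPM, again without overlap (2.24 ± 0.33, edgeR adjusted p = 5.0e-04). Its level in intact nerve was 850 ± 217 CPM. Ocln, the tight junction protein occludin, rose from 11.7, 12.5, 8.79, 8.03 and 12.1 CPM to 28.2, 36.5, 53.5 and 59.4 CPM (1.99 ± 0.23, edgeR adjusted p = 6.2e-05) against 72.5 ± 19.8 CPM in intact nerve.

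The other rises were those of the junction adaptor Cgn (1.83 ± 0.39), the lactate transporter Slc16a1 (1.52 ± 0.32), the glucose transporter Slc2a1 (1.06 ± 0.23), the efflux pumps Abcb1a (0.97 ± 0.12) and Abcg2 (0.73 ± 0.14), the adhesion protein Jam2 (0.80 ± 0.14), the amino acid transporter subunit Slc7a5 (0.80 ± 0.21) and Cldn5, the main endothelial claudin (744 ± 224 to 1144 ± 245 CPM, 0.71 ± 0.18). The pump Abcc4 fell (-0.66 ± 0.19). Of the 23 genes 17 were lower at 14 dpi than in intact nerve and none higher. The list summed to 4754 to 6199 CPM at 7 dpi, 6996 to 8421 CPM at 14 dpi and 10480 to 19190 CPM in intact nerve. The caveolar and fenestral list moved little: of 10 genes Cav2 rose (0.67 ± 0.17), and Plvap, the diaphragm protein of leaky vessels, was at 2636 ± 519.9 and 1813 ± 169.6 CPM (-0.43 ± 0.31, edgeR adjusted p = 0.478). Slc7a5 missed the threshold without 14 dpi library 1 or 4 or 7 dpi library 1, 2 or 3 (0.58 to 0.76), and Abcc4 without 14 dpi library 1 or 2 or 7 dpi library 1 or 3 (-0.66 to -0.54).

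Perineurial cells form a barrier of their own, and part of these genes is shared with them. Their list rose in 7 of 10 genes with a median of 1.17 (Cldn1 1.78 ± 0.32 and the keratin Krt19 2.14 ± 0.40), and Slc2a1 belongs to both lists. Slc16a1 was lowest in the stroma-poor 7 dpi library 3 (86.1 CPM against at least 239.7 CPM). With the level of Dcn and Cldn1 as a covariate its fold change was 0.11 ± 0.28, and those of Cgn and Slc2a1 were 0.60 ± 0.59 and 0.45 ± 0.31. Under the same covariate Mfsd2a was at 2.96 ± 0.69, Slco1a4 at 2.25 ± 0.54, Ocln at 1.54 ± 0.35, Jam2 at 0.84 ± 0.23 and Cldn5 at 0.68 ± 0.30. None of the 23 genes passed in that fit, and the list median was 0.60.

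**Figure D5:**
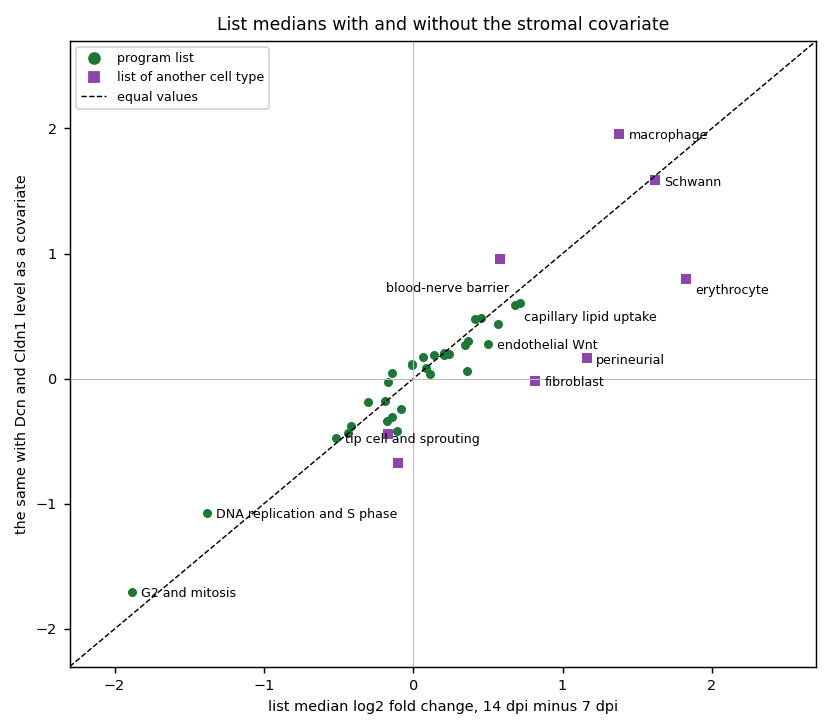
Median log2 fold change of each gene list between 14 and 7 dpi (x axis) and in the fit with the level of Dcn and Cldn1 as a covariate (y axis), with the line of equal values dashed. Dcn and Cldn1 belong to the fibroblast and perineurial lists, so the lower values of those lists (-0.01 and 0.16) follow from the covariate itself. The mitosis median was -1.70 with 12 members passing and the barrier median 0.60 with none.

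In the list of endothelial Wnt genes, targets and components of the pathway, all 20 counted genes were tested, 8 rose and 1 fell (median 0.50). Tnfrsf19, a TNF receptor family member and Wnt target (chr14:60963875-61046490), stood at 1.48, 2.71, 5.21, 1.46 and 1.13 CPM at 7 dpi and 11.7, 15.4, 5.75 and 8.94 CPM at 14 dpi. The lowest 14 dpi library lay just above the highest at 7 dpi (2.23 ± 0.28, edgeR adjusted p = 1.2e-04), and intact nerve was at 84.8 ± 20.01 CPM. The feedback inhibitor Nkd1 rose from 5.52 ± 1.98 to 15.7 ± 2.77 CPM (1.56 ± 0.23, edgeR adjusted p = 4.9e-04). Axin2, the general readout of beta-catenin activity (1.40 ± 0.27), the transcription factor Foxq1 (1.52 ± 0.42) and the nuclear effector Lef1 (1.11 ± 0.22) also rose. Axin2 and Foxq1 were low, at means of 1.98 and 0.4565 CPM at 7 dpi and 5.23 and 1.305 CPM at 14 dpi. The receptor Fzd4 (0.02 ± 0.14) and beta-catenin, Ctnnb1 (-0.01 ± 0.14), did not pass, and the co-receptor Adgra2 fell (-0.78 ± 0.18). At 14 dpi 8 of the 20 were below intact nerve and none above. Tnfrsf19 and Nkd1 passed with the stromal covariate (3.16 ± 0.39 and 2.05 ± 0.36), the other 6 did not, and the median was 0.28. Without 7 dpi library 4 or 14 dpi library 3 or 4 there were 5 rises, and Foxq1 missed the threshold without 14 dpi library 1, 3 or 4 or 7 dpi library 4 (1.25 to 1.48).

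Genes of the capillary lipid uptake list formed another rising group. Of 16 tested, 9 rose and none fell (median 0.68). The rises included Car4, Aqp1, Timp4 and Meox2 besides genes of fatty acid uptake. The fatty acid genes Fabp5, Lipa, Slc27a3 and Slc27a4 did not pass. Car4, a membrane carbonic anhydrase of capillaries (chr11:84957788-84966044), had the greatest rise of any list member outside the other cell types. It stood at 11.7, 22.0, 5.96, 7.28 and 6.60 CPM at 7 dpi and 119, 64.4, 44.9 and 96.1 CPM at 14 dpi (3.04 ± 0.34, edgeR adjusted p = 5.3e-05), under the 551 ± 167 CPM of intact nerve. Aqp7, a glycerol channel, rose from 57.8, 51.3, 32.0, 14.9 and 10.8 CPM to 112, 104, 86.5 and 90.1 CPM (1.87 ± 0.30, edgeR adjusted p = 8.4e-04). Lipoprotein lipase, Lpl (1.33 ± 0.37), the fatty acid binding protein Fabp4 (0.86 ± 0.24) and the fatty acid receptor Cd36 (0.72 ± 0.20) rose with overlapping groups. Gpihbp1, which anchors lipoprotein lipase to capillaries, was at 312 ± 20.4 and 258 ± 53.9 CPM (-0.26 ± 0.19, edgeR adjusted p = 0.489). Against intact nerve 7 of the 16 were higher at 14 dpi and 1, Car4, lower. There were 5 rises without 7 dpi library 3, 4 or 5 or 14 dpi library 3. Lpl missed the threshold without 14 dpi library 1 or 3 or 7 dpi library 2, 3, 4 or 5 (0.91 to 1.43), Fabp4 without 14 dpi library 1, 3 or 4 or the same 7 dpi libraries (0.67 to 0.88) and Cd36 without 14 dpi library 3 or 4 or 7 dpi library 3, 4 or 5 (0.62 to 0.70). With the stromal covariate Car4 was at 2.14 ± 0.47, no member passed, and the median was 0.59.

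Notch, arterial and venous genes did not move as groups. Their counts stand beside 5.73% higher and 4.20% lower over all tested genes. Of 13 Notch genes 2 rose and 1 fell (median 0.24): the targets Heyl (28.7 ± 8.59 to 67.3 ± 20.99 CPM, 1.19 ± 0.24) and Hes1 (115 ± 38.1 to 196 ± 38.4 CPM, 0.90 ± 0.20) rose, and the receptor-modifying Mfng fell (-0.64 ± 0.18). The receptors Notch1 (-0.25 ± 0.18) and Notch4 (-0.74 ± 0.24, edgeR adjusted p = 0.0711) did not pass. The mural list rose in 3 of 14 members beside them, and its part was not tested. Among 18 arterial genes the semaphorin Sema3g rose (0.50 ± 0.14) and endothelin, Edn1, fell (-0.80 ± 0.22). Edn1 was at 134 ± 41.8 and 74.3 ± 18.6 CPM, under the 277 ± 75.6 CPM of intact nerve. Efnb2, the arterial ephrin, was at 34.5 ± 7.88 and 33.1 ± 2.98 CPM (edgeR adjusted p = 0.996). Among 13 venous genes 1 rose and 1, Aplnr, fell, while Nr2f2, the venous transcription factor, missed the threshold (0.71 ± 0.22, edgeR adjusted p = 0.0571).

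Of 18 flow response genes 4 rose and 3 fell (median -0.17). Among the rises Pi16 (1.21 ± 0.37) belongs to the fibroblast list too, and the part of fibroblasts in it was not tested. Txnip, a thioredoxin inhibitor known to respond to flow and glucose, rose from 276, 286, 342, 222 and 207 CPM to 640.4, 449.6, 487 and 481 CPM, without overlap (1.00 ± 0.17, edgeR adjusted p = 0.00102). Nitric oxide synthase, Nos3, fell from 111 ± 22.5 to 63.2 ± 10.6 CPM (-0.74 ± 0.20), and the stretch-gated channel Piezo1 from 118 ± 36.8 to 73.1 ± 8.29 CPM (-0.64 ± 0.18). Klf2, the flow-induced transcription factor, was at 107 ± 26.2 and 138 ± 32.8 CPM (0.32 ± 0.22, edgeR adjusted p = 0.459). Mfng missed the threshold without 14 dpi library 1, 2 or 3 or 7 dpi library 3 or 4 (-0.63 to -0.56), Nos3 without 14 dpi library 1 or 2 or 7 dpi library 3 or 4 (-0.76 to -0.61), Piezo1 without 14 dpi library 1, 2 or 4 or 7 dpi library 1, 3 or 4 (-0.67 to -0.52; -0.20 with the stromal covariate), Edn1 without 7 dpi or 14 dpi library 2 or 3 (-0.81 to -0.70) and Sema3g without 14 dpi library 2, 3 or 4 or 7 dpi library 2, 4 or 5 (0.42 to 0.50).

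Of 19 immediate early genes, which cells induce within minutes of a stimulus, 8 rose and none fell (median 0.57). Egr2, a zinc finger transcription factor (chr10:67537869-67542188), was at 39.4, 37.7, 32.5, 34.3 and 29.0 CPM at 7 dpi and 96.2, 121, 151.5 and 95.8 CPM at 14 dpi (1.82 ± 0.24, edgeR adjusted p = 2.0e-04). It also exceeded intact nerve (60.2 ± 28.8 CPM; 1.08, edgeR adjusted p = 0.00769). Egr2 also drives myelination in Schwann cells, whose list rose in 9 of 14 genes, and the part of those cells in its rise was not tested. Egr1 rose from 780.3 ± 139.6 to 1789 ± 409.8 CPM (1.21 ± 0.22), Ier2 from 414 ± 62.7 to 729 ± 22.6 CPM (0.86 ± 0.18) and Fos from 3187 ± 309 to 5430 ± 881 CPM (0.80 ± 0.19), all without overlap. All libraries went through enzymatic dissociation, which is known to induce these genes. Only 4 members of the list rose without 14 dpi library 3. None passed with the stromal covariate, when Egr2 was at 1.66 ± 0.40, Egr1 at 0.86 ± 0.34 and the median at 0.44.

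Of 20 glucocorticoid and circadian genes 6 rose and 1 fell (median 0.41). Hlf, a clock output factor, rose from 1.38, 1.38, 1.67, 0.752 and 1.40 CPM to 5.09, 6.38, 7.10 and 4.59 CPM (2.18 ± 0.24, edgeR adjusted p = 3.8e-05), against 32.3 ± 8.99 CPM in intact nerve. It was the only one of the 6 to pass with the stromal covariate as well (2.45). The related factor Tef rose (1.11 ± 0.20), as did the glucocorticoid receptor Nr3c1 (77.4 ± 16.8 to 137 ± 26.3 CPM, 0.88 ± 0.11, edgeR adjusted p = 1.5e-04) and the glucocorticoid-induced Tsc22d3 (0.97 ± 0.21). Fkbp5, another glucocorticoid target, went the other way, from 47.7, 39.9, 40.1, 51.5 and 44.7 CPM to 9.14, 14.8, 29.7 and 23.3 CPM (-1.34 ± 0.21, edgeR adjusted p = 7.1e-04). The labels used here give no hour of tissue collection.

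Of 24 interferon response genes 5 rose and none fell (median 0.46). The interferon-inducible GTPase Iigp1 was at 171, 210.2, 187, 83.7 and 67.2 CPM at 7 dpi and 449, 278, 162 and 149 CPM at 14 dpi. The groups overlapped and both times were lower in batch 1133 (7 dpi libraries 4 and 5, 14 dpi libraries 3 and 4); the fold change with batch in the model was 0.99 ± 0.18 (edgeR adjusted p = 0.00215). Gbp4 (0.70 ± 0.14), Ifit3 (0.90 ± 0.26) and the transcription factor Irf1 (0.81 ± 0.20) rose too. In antigen presentation 2 of 18 genes rose (background 5.73% higher), among them the nonclassical class I gene H2-T23 (151 ± 34.4 to 244 ± 30.7 CPM, 0.78 ± 0.19). H2-K1 (0.39 ± 0.18) and H2-D1 (0.22 ± 0.19) did not pass. No interferon gene passed with the stromal covariate. Without 14 dpi library 3 there were 2 interferon rises, without 14 dpi library 4 there were 3, and without intact library 5 there were 9. Ifit3 missed the threshold without 14 dpi library 1, 3 or 4 or 7 dpi library 1, 2, 3 or 5 (0.68 to 0.94), and Irf1 without 14 dpi library 3 or 4 (0.69 to 0.77).

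Leukocyte recruitment genes changed in single members. Of 17 tested 2 fell and 1 rose (median 0.09). Madcam1, the addressin of gut vessels, was at 6.03, 11.3, 10.3, 6.53 and 7.85 CPM at 7 dpi and 0.987, 0.0378, 0.451 and 0.969 CPM at 14 dpi (-3.88 ± 0.59, edgeR adjusted p = 6.1e-04). The groups were far apart, and intact nerve was at 0.363 ± 0.216 CPM. The granulocyte growth factor Csf3 fell by 1.94 ± 0.58, and the lipocalin Lcn2 rose by 1.07 ± 0.29. E-selectin, Sele (301 ± 61.5 and 173 ± 10.2 CPM, -0.65 ± 0.37), and P-selectin, Selp (531 ± 123 and 372 ± 54.2 CPM, -0.30 ± 0.38), did not pass in edgeR (adjusted p = 0.339 and 0.742) and were above intact nerve at 14 dpi (log2 fold change 2.46 and 1.72, edgeR adjusted p = 0.00043 and 0.00899). Csf3 missed the threshold without 14 dpi library 1, 2 or 3, any 1 of the 7 dpi libraries or intact library 1 (-2.02 to -1.69), and Lcn2 without 14 dpi library 1 or 4 or 7 dpi library 1, 3, 4 or 5 (0.87 to 1.05).

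Of 23 TGF-beta and BMP genes 4 rose and 2 fell (median 0.36). The ligand Bmp2 fell from 31.8, 15.8, 30.1, 21.9 and 17.2 CPM to 11.6, 9.11, 10.7 and 5.63 CPM (-1.29 ± 0.26, edgeR adjusted p = 0.00447) and the signal transducer Smad1 from 133.2, 107, 146, 132 and 117 CPM to 86.8, 78.4, 77.9 and 77.8 CPM (-0.64 ± 0.17). The co-receptor Tgfbr3 (0.68 ± 0.16) and the TGF-beta-induced matrix protein Tgfbi (0.90 ± 0.18) rose. Of 12 mesenchymal transition genes 2 rose and none fell (background 5.73% higher, median 0.37). Tagln, a smooth muscle actin binder, rose (8.38 ± 3.57 to 22.4 ± 12.3 CPM, 1.51 ± 0.23), and it belongs to the mural list too. Zeb2 rose by 0.96 ± 0.25 and missed the threshold without 14 dpi library 1 or 3 or 7 dpi library 1 or 5 (0.70 to 0.92). The pericyte marker Rgs5 was at 819 ± 339 and 1457 ± 902 CPM (0.87 ± 0.30, edgeR adjusted p = 0.0858). Smad1 missed the threshold without 7 dpi library 3 or 14 dpi library 2 (-0.62 to -0.57), and Bmp2 was at -0.78 ± 0.39 with the stromal covariate.

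Guidance genes showed a few further rises and trophic genes 1. Of 24 semaphorins, plexins and neuropilins 5 rose and 1 fell (median 0.21). Sema3b rose from 12.9, 20.02, 4.71, 17.3 and 13.8 CPM to 24.0, 40.05, 71.7 and 64.9 CPM (1.75 ± 0.33, edgeR adjusted p = 0.00254), with its lowest value in the stroma-poor library, and was at 0.45 with the stromal covariate. Sema4a rose from 4.51 ± 1.05 to 12.5 ± 4.43 CPM (1.42 ± 0.27), Sema3c by 1.27 ± 0.33, and Sema3f fell by 0.74 ± 0.19. With the covariate Sema3c was at -0.18, the opposite sign. Of 18 angiocrine genes 1 rose and none fell (background 5.73% higher and 4.20% lower). The rise was that of Ptn, pleiotrophin, a growth factor for axons and vessels (25.5, 42.7, 29.99, 14.7 and 22.5 CPM to 111, 94.2, 35.8 and 48.5 CPM, 1.43 ± 0.22, edgeR adjusted p = 5.8e-04). Without 7 dpi library 2 there were 3 semaphorin rises, and without 7 dpi library 4 or 14 dpi library 2 or 3 there were 2. Sema3c missed the threshold without 14 dpi library 2 or 3 or 7 dpi library 4 (1.08 to 1.27), and Sema3f without the same libraries (-0.67 to -0.66).

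Among the greatest rises of all were transcripts of other nerve cells. Mbp, myelin basic protein of Schwann cells, was at 10.4, 3.44, 3.21, 14.2 and 10.5 CPM at 7 dpi and 89.8, 224, 512 and 311 CPM at 14 dpi (4.96 ± 0.45, edgeR adjusted p = 1.5e-05), with intact nerve at 182 ± 81.0 CPM. All 14 dpi libraries lay far above all 7 dpi libraries, most of all library 3. Prostaglandin synthase, Ptgds, rose by 4.28 ± 0.41. Of 14 Schwann genes 9 rose and none fell (median 1.62). With the stromal covariate the Schwann median was 1.58, and 5 passed. The fibroblast list rose in 8 of 19 genes and fell in 1 (Thy1, -1.07 ± 0.26, and -0.91 without 14 dpi library 2, when it missed the threshold), with a median of 0.82. Dcn, decorin, went from 3544, 3696, 703, 4589 and 5269 CPM to 7525, 7938, 11060 and 14090 CPM (1.47 ± 0.34), and Gsn, gelsolin, rose by 2.20 ± 0.34. Myoc (3.74 ± 0.51), Fam180a (3.23 ± 0.34) and the GDNF receptor Gfra1 (2.62 ± 0.41) were lowest at 7 dpi in library 3, and with the stromal covariate stood at 1.92, 2.08 and 0.63. Whether these transcripts lie within Tomato-positive cells, in attached fragments or in other sorted cells was not tested.

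The 5 globin and heme genes of the erythrocyte list all rose (10.26 to 55.13 CPM in sum at 7 dpi, 57.47 to 111.8 CPM at 14 dpi), and 2 or 3 of them did so without 7 dpi library 3, 4 or 5 or 14 dpi library 2 or 4. The macrophage list summed to 49.14 to 427.8 CPM at 7 dpi and 32.35 to 1359 CPM at 14 dpi, and of its 14 tested genes none rose and 1, arginase (Arg1, -1.37 ± 0.37), fell. Arg1 missed the threshold without 14 dpi library 1, 2 or 3 or 7 dpi library 2, 4 or 5 (-1.35 to -1.10), and was at -2.93 with the stromal covariate. The macrophage median of 1.38 turned to -0.54 without 14 dpi library 3. Of 8 lymphatic genes 1, Flt4, fell, and of 6 muscle and fat genes none was called.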

How the data were processed

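The authors deposited raw counts per gene in whole numbers, 1 column per library, per the file headers. Trimmomatic 0.39, STAR 2.5.3a, featureCounts 1.6.4, Cell Ranger 3.0.2 and the build mm10 (GRCm38) appear in the submitters' processing notes. Strand setting, treatment of multiply aligned reads and annotation release were not given in the sources used here. Therefore overlapping or antisense genes and near-identical copies (globins, Ifit and H2 genes) may share counts.

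Counts were fitted as deposited with edgeR 4.0.16 (R 4.3.3): filterByExpr (minimum count 10), TMM scaling, and a quasi-likelihood F test with robust dispersion over 14 libraries (intact, 7 and 14 dpi) with batch as covariate, checked on simulated data. Genes with a Benjamini-Hochberg adjusted p under 0.05 over all 20409 tested were called. The standard error (SE) was taken as the size of the log2 fold change over the root of F. CPM are TMM-scaled. Replicates were not duplicates (chi-square per degree of freedom 17.77 to 139.1 over 16 pairs).

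Lists, given as counts and medians without a test, and the choice of comparison were made with earlier results of these data known. The naming rule took up to 15 greatest rises and falls with average log2 CPM no lower than 3 and 1 sign in both batches, up to 4 called members each way and the first 2 symbols of each list, and Plxnd1, Kdr, Cdh5 and Pecam1. The text names part of these, and some members outside the rule (such as Cdc20, Mcm6, Mcam, Angpt2, Dll4, Slc16a1, Abcb1a and Lef1) were chosen after their values were seen. Alternatives included DESeq2 1.42.0, other scalings, no filter, no batch term, each batch alone, Y chromosome genes as a covariate and leaving out each library.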

Additional observations from a re-analysis of the deposited data

Results flagged for a closer look

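Values of 171 named genes were screened for a library far from the others of its group at 7 or 14 dpi (342 groups of values). A gap large against the group's range was found in 11, and chance alone flags about 1 in 20 such groups. At 7 dpi, library 4 was highest for Birc5 (128.1 CPM), Plk1 (67.53 CPM) and Lyz2 (244.6 CPM), library 3 was highest for Cxcr4 (20.12 CPM), and library 2 was highest for Lcn2 (13.67 CPM). At 14 dpi, library 1 was lowest for Pgf (12.15 CPM) and highest for Smad1 (86.78 CPM) and Tagln (40.82 CPM). Library 4 was highest for the glycolytic genes Pkm (594.9 CPM) and Pgk1 (64.83 CPM), and library 3 for Lyz2 (777.8 CPM). The 7 dpi library 3 was the one with the least Dcn and Cldn1, and Lyz2 was at most 16.84 CPM in the other 7 dpi libraries and 23.8 CPM in the other 14 dpi libraries.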

How the results depend on the processing

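The labels give no shared replicate numbers, but title numbers run in sets across the groups. A block by these sets in place of batch, added after the data were seen, gave 985 genes higher and 656 lower, and 1562 of the 2027 calls held. Libraries of 1 set at 7 and 14 dpi deviated from their group means with correlations of 0.208 to 0.45, batch included, and 2 of 4 14 dpi libraries correlated best with their own set. With batch removed too the correlations were -0.318 to 0.162, and 1 of 4 did. Since each set lies in 1 batch, which is already in the model, the sets were not taken as pairs. Under this block Aplnr, Col4a2, Mmp9, Cox5a, Scd1, Abcc4, Foxq1, Fabp4, Mfng, Nos3, Piezo1, Npas2, Smad1, Ltbp1, Sema3c and Arg1, 16 of 171 named genes, missed the threshold with their sign kept (edgeR adjusted p = 0.0513 to 0.0922), and Nr2f2 passed (0.80, adjusted p = 0.0362). Against 1170 genes higher and 857 lower, the counts were 1374 and 1341 with only the 7 and 14 dpi libraries in the fit, 1700 and 1555 with DESeq2, and 697 and 529 with no batch term. They were 264 and 102 in batch 1133 alone, 249 and 477 in batch 1292 alone, 894 and 550 with the Y chromosome genes as a covariate, 37 and 73 with the Dcn and Cldn1 covariate, and 557 and 429 without 7 dpi library 3 and 14 dpi library 3. Leaving out 1 library gave 762 to 1404 higher and 518 to 1252 lower genes. No called gene had the opposite sign in these settings, except 83 of 2027 with the Dcn and Cldn1 covariate. That covariate reversed the fibroblast median (-0.0147), Scd1 (-0.35), Ltbp1 (-0.26), Sema3c (-0.18) and Dcn (-0.21); Dcn is part of the covariate and of the fibroblast list, so both of those follow from its construction. The flow response median was 0.0917 in batch 1133, the Notch median -0.0770 in batch 1292 and the macrophage median -0.63 without both libraries. With 1 library left out, the venous median ran from -0.272 to 0.0349 (the latter without 14 dpi library 2) and the macrophage median from -0.54 (without 14 dpi library 3) to 2.03. The causes were not tested. All 25 mitosis genes were lower in every fit that left out 1 library.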

Other observations

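Imprinted genes were read as a group because Mest and H19 stood among the greatest falls, so the group was chosen after those values were seen and carries no test. Of 23 imprinted genes tested, 6 fell, 2 rose and 15 were not called, with a median log2 fold change of -0.20. Over all tested genes 4.20% fell and 5.73% rose. Besides Mest (-2.66 ± 0.24) and H19 (-2.26 ± 0.40), Peg12 fell from 13.1 ± 3.90 to 4.40 ± 1.06 CPM (-1.55 ± 0.28), Slc38a4 by 1.26 ± 0.29, the brain-expressed Nnat by 1.15 ± 0.29 and the zinc finger gene Plagl1 by 0.77 ± 0.23. The rises were Cdkn1c (0.91 ± 0.23), a brake on division, and Impact (28.5 ± 3.03 to 52.6 ± 6.47 CPM, 0.89 ± 0.17). Igf2, the growth factor that shares a locus with H19, was at 7.91 ± 4.35 and 2.69 ± 0.765 CPM (-1.55 ± 0.50) and missed the threshold (edgeR adjusted p = 0.0588). Dlk1, another growth regulator, was at 5.32 ± 1.78 and 12.3 ± 5.30 CPM (1.19 ± 0.42, edgeR adjusted p = 0.0855).

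Promoter windows were also read for the interferon and hypoxia lists. The core of the interferon-stimulated response element, bound by STAT and IRF factors, was in 11 of 20 interferon list windows (55%), against 3.44% of all windows. The core of the hypoxia response element was in 17 of 30 hypoxia and glycolysis windows (56.7%), against 19.6%. These shares describe letters and say nothing of which factor acted.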
